A study of Homo sapiens with 18 samples.

Results

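Genes that type I interferon switches on were followed in 2 human lung adenocarcinoma cell lines with mutant EGFR, H1650 and PC9, using brain-metastatic derivatives of each line. The 48 genes were taken by name, from the effectors, sensors and transcription factors of the interferon response, and each was found by its Ensembl identifier in both count tables, among 60603 rows for H1650 and 60649 rows for PC9. RNA was measured in 3 groups per line with 3 libraries each, 18 in all. The groups were Tr-BrM cells labelled S100A9-inh (called S100A9-inh below), Tr-BrM cells labelled control, and BrM cells labelled control. The sources used here do not give what Tr stands for, how S100A9 was inhibited, whether a derivative is 1 clone, or whether libraries of 1 group are separate cultures. The p-values therefore measure the spread between these libraries, which may be technical. All groups of a line share its EGFR-mutant background. Levels are given in CPM, counts divided by the library's scaled total so that libraries of different depth can be compared. Changes are log2 fold changes ± SE of 3 libraries against 3. The words "rose" and "fell" are used of genes with an adjusted p under 0.05 in edgeR's quasi-likelihood test (Benjamini-Hochberg over all tested genes of the line).

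Type I interferons bind the receptor chains IFNAR1 and IFNAR2, whose kinases JAK1 and TYK2 phosphorylate STAT proteins. STAT2 acts with IRF9 in a complex that binds the interferon-stimulated response element (ISRE) in the promoters of interferon-stimulated genes. The products block viral RNA and protein synthesis, trap virions, tag proteins with ISG15 or sense cytosolic RNA, and tumour cells can express them without any virus. In bulk RNA, fewer cells with a transcript and less transcript per cell cannot be told apart.

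The ISRE core was searched as GAAANNGAAA on both strands in RefSeq promoter windows (GRCh38.p14, 250 bases before to 50 after an annotated start, 300 bases in all). Windows were found for 40 of the 48 genes, and 27 of these 40 (67.5%) held a match, against 1195 of 27303 genes (4.38%) with a window in the table. The 8 genes without a window were IRF7, OAS2, OASL, IFIT2, MX2, IFITM2, USP18 and TRIM22. The 13 without a match were ADAR, CMPK2, HERC6, IFI35, IRF1, IRF9, OAS1, RIGI, SAMD9L, SP100, STAT2, UBE2L6 and XAF1, and no match says only that these letters are not in these windows. Below are stretches upstream of the start in 8 genes whose levels are described later, each read 5′ to 3′ on the gene's own strand, with 1 match per line in capitals (the core on the opposite strand reads TTTC, any 2 bases, TTTC).
IFIT1, chr10:89392482-89392541, forward strand: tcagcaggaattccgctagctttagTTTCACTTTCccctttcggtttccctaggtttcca
IFIT3, chr10:89332453-89332512, forward strand: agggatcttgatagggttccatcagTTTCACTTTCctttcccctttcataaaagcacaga
LGALS3BP, chr17:78979947-78980006, reverse strand: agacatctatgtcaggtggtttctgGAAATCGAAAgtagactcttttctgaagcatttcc
BST2, chr19:17405726-17405785, reverse strand: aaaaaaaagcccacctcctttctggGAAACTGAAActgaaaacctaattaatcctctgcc
OAS3, chr12:112938306-112938365, forward strand: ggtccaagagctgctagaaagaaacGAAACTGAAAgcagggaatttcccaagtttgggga
DDX60, chr4:168318771-168318830, reverse strand: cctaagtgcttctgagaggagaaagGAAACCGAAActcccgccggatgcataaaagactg
IFI44L, chr1:78620350-78620409, forward strand: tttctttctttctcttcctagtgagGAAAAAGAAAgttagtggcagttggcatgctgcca
EPSTI1, chr13:42992257-42992316, reverse strand: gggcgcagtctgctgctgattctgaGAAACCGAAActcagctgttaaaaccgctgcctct
In BST2 the marked match overlaps another that starts 6 bases later, and IFIT1 holds a further match 13 bases on. A match is a description of the sequence and not a shown binding site.

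**Figure D1:**
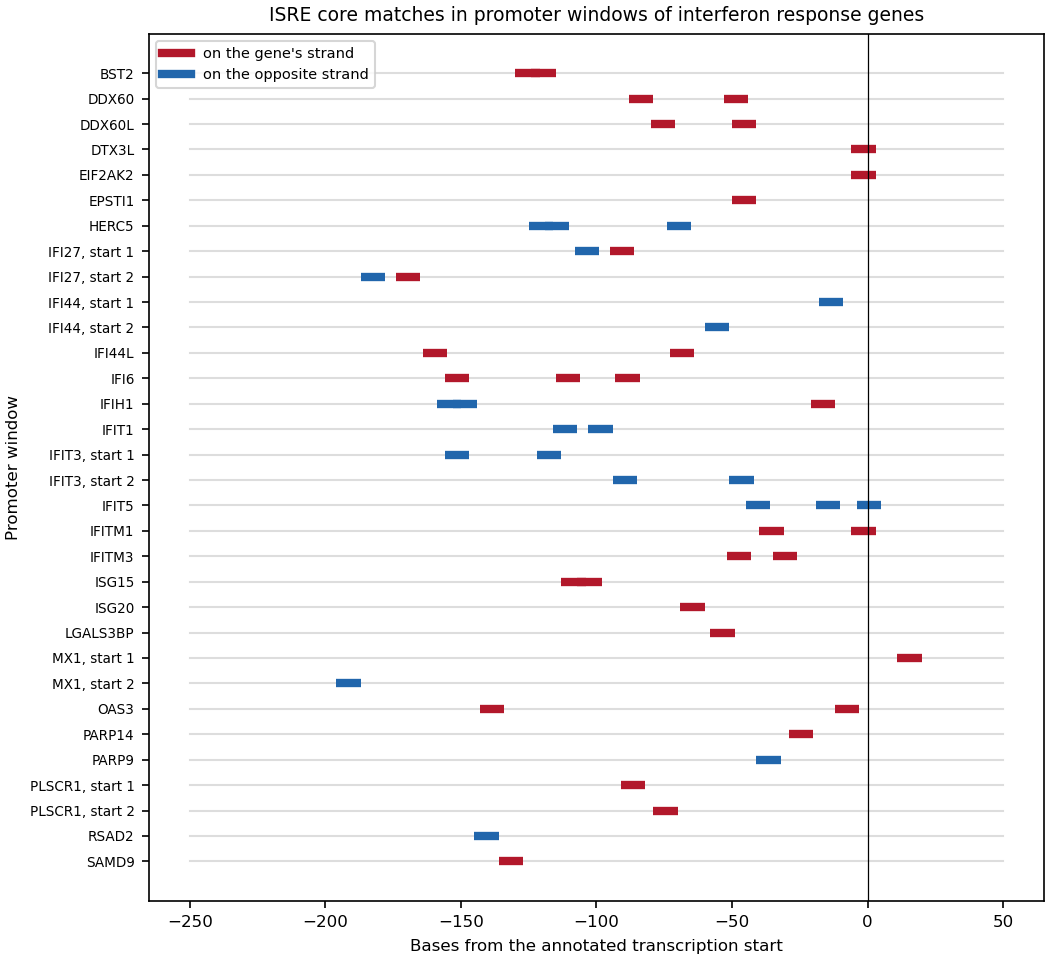
Position of each ISRE core match, in bases from the annotated transcription start, in the 32 promoter windows of interferon response genes that hold one; red matches lie on the gene's strand and blue ones on the opposite strand, and grey lines span the window. All matches lie wholly upstream of the start except those of EIF2AK2, DTX3L, IFIT5 and IFITM1 that span it and 1 of MX1 downstream of it.

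S100A9, the labelled target, encodes a calcium-binding protein of the calprotectin pair. In H1650 it had 95.2, 88.2 and 105 CPM under S100A9-inh, 336, 293 and 292 CPM in Tr-BrM controls and 217, 206 and 199 CPM in BrM controls. In PC9 it had 33.9, 30.4 and 35.5 CPM under S100A9-inh, 739, 738 and 759 CPM in Tr-BrM controls and 119, 127 and 119.7 CPM in BrM controls. In both lines S100A9 was thus lowest under S100A9-inh and highest in the Tr-BrM controls, without overlap between groups. Library totals were 17403497 to 27112362 counts in H1650 and 18174516 to 21748732 in PC9, and replicate 1 of PC9 S100A9-inh stood apart from the other two of its group. Of 8 lung epithelial markers, the summed level was 8810 to 9150 CPM (S100A9-inh), 9040 to 9370 CPM (Tr-BrM) and 10800 to 10900 CPM (BrM) in H1650, and 21200 to 23400, 20000 to 20500 and 26100 to 26500 CPM in those groups of PC9. NKX2-1 and NAPSA averaged below 1 CPM in every group of both lines. The 6 astrocyte markers summed to 171 to 184 CPM under S100A9-inh, 231 to 242 CPM in Tr-BrM controls and 32.5 to 41.6 CPM in the BrM controls of H1650, mostly from SLC1A3 and GFAP. In PC9 they summed to 34.2 to 37.7, 97.7 to 103 and 15.4 to 16.5 CPM in the same groups, and AQP4 and S100B were at 0 counts in both Tr-BrM groups. Sums over 8 leukocyte and microglial markers were 107 to 113, 94.8 to 100 and 91.6 to 93.7 CPM in H1650 and 21.6 to 25.9, 15.6 to 16.6 and 32.1 to 32.8 CPM in PC9 in the same order of groups, with TYROBP at 0 counts in all PC9 groups. The PC9 sum does not follow most of the tested markers, and 7 of the 8 were below 5 CPM there. In PC9 Tr-BrM against BrM 2 of 3 tested rose and 1 fell (median 1.89), beside 29.6% and 30.3% of all genes. In H1650 4 of 6 rose and 1 fell (median 2.02), beside 32.2% and 31.7%. For 7 plasmacytoid dendritic cell markers, the cells that make most type I interferon, the sums were 21.6 to 24.6, 18.7 to 20.3 and 5.68 to 7.86 CPM in H1650. In PC9 they were 7.69 to 8.65, 12.8 to 14.1 and 21.3 to 21.8 CPM, with IL3RA at 0 counts in all groups of both lines. In the PC9 Tr-BrM controls 6 of the 7 were at 0 counts, so that sum is TCF4 alone. In each other PC9 group 5 of the 7 were at 0 counts, so these sums do not stand for the 7 markers together. Sums over 5 fibroblast markers were 36.9 to 45.3, 37.1 to 48.1 and 9.05 to 10.9 CPM in H1650 and 17.2 to 20.1, 12.6 to 15.1 and 26.7 to 27.2 CPM in PC9. Sums over 4 endothelial markers were 5.18 to 7.72, 5.34 to 6.45 and 1.13 to 3.32 CPM in H1650 and were 23.5 to 28.1, 40.3 to 41.2 and 22.8 to 26.6 CPM in PC9. The part of these markers in the results was not tested.

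In H1650 the interferon response genes were lower in Tr-BrM than in BrM cells, and lower again under S100A9-inh. Their summed level was 5360, 5358 and 5360 CPM under S100A9-inh, 7336, 7063 and 7020 CPM in Tr-BrM controls and 10567, 10558 and 10512 CPM in the BrM controls. In Tr-BrM against BrM controls, 39 of the 47 genes tested fell, 6 rose and 2 did not pass. Over all 17937 genes tested in that comparison 31.7% fell and 32.2% rose. Under S100A9-inh against Tr-BrM controls 39 fell and 8 did not pass, where 13.8% of all genes fell and 15.4% rose. In that comparison 0 of the 47 genes rose in edgeR, 0 were higher at an unadjusted p under 0.05 and 0 rose in DESeq2. Set against BrM controls, S100A9-inh cells had 44 of the 47 lower, 2 higher and 1 not past the test, beside 31.2% lower and 32.5% higher of all genes.

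The median log2 fold change over the 47 genes was -0.62 for Tr-BrM against BrM controls, -0.36 for S100A9-inh against Tr-BrM controls and -1.06 for S100A9-inh against BrM controls. The median of all genes tested was within 0.001 of 0 in each. By role, the medians for S100A9-inh against BrM ran from -2.02 in the IFIT family and -1.56 in the OAS group to -0.22 in the transcription factors. The H1650 counts by role below stand beside these shares of all genes. In Tr-BrM against BrM 31.7% fell and 32.2% rose, and under S100A9-inh against Tr-BrM 13.8% fell and 15.4% rose. The comparisons share control libraries, so they are given side by side and not as support for each other. In 32 of the 47 genes the libraries of the 3 groups did not overlap and ran BrM above Tr-BrM above S100A9-inh, an order that 4.43% of all tested genes had. Another 3 genes (STAT2, TRIM22 and IFI6) ran Tr-BrM, BrM, S100A9-inh from high to low, EPSTI1 ran Tr-BrM, S100A9-inh, BrM, IRF1 ran BrM, S100A9-inh, Tr-BrM, and 10 overlapped somewhere. Among the falls under S100A9-inh against Tr-BrM, that of IFI44L alone was past a log2 fold change of 1 in size.

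**Figure D2:**
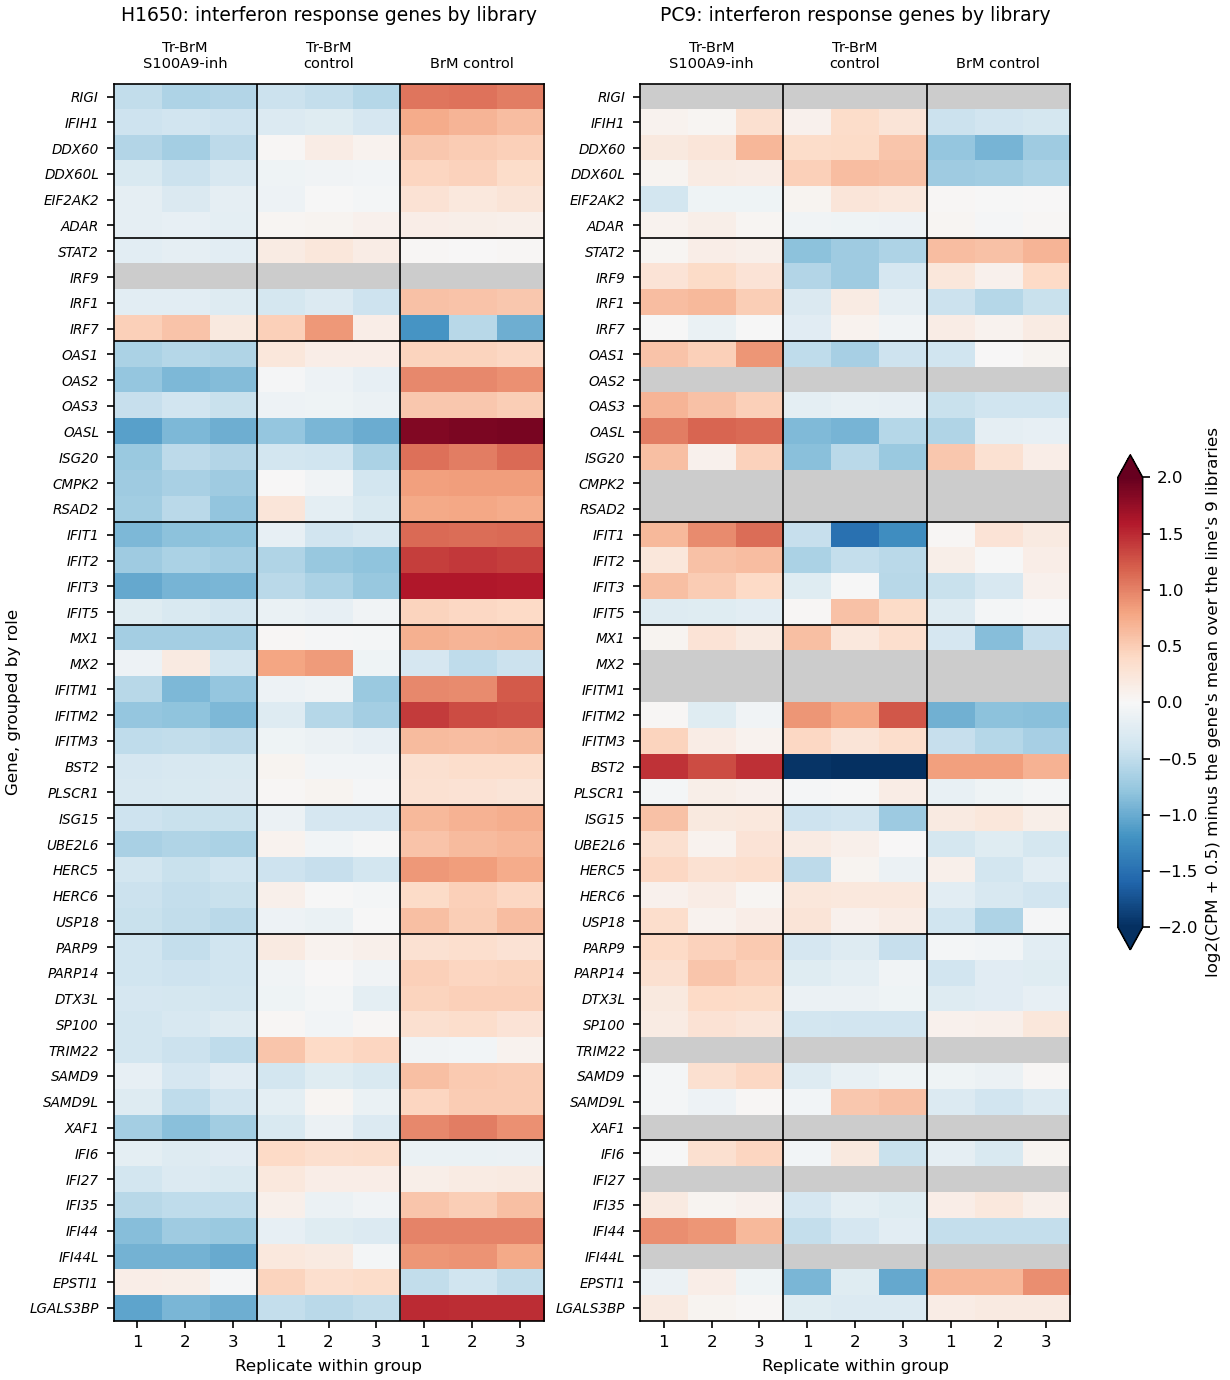
Level of each of the 48 genes in each library, as log2(CPM + 0.5) minus the gene's mean over the 9 libraries of its line, with libraries in columns by group and genes in rows by role; the colour scale is clipped at 2 and grey rows did not pass the filter on low counts (1 gene in H1650, 10 in PC9). In H1650 the BrM columns are high for most genes and the S100A9-inh columns low, while in PC9 the pattern differs between genes.

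The IFIT proteins bind foreign RNA and block its translation. All 4 measured IFIT genes fell in H1650 Tr-BrM cells, and their median change of -1.77 was the lowest of the 8 role groups. IFIT3 (ENSG00000119917, chr10:89327894-89340971, forward strand) had 61.8, 66.02 and 66.6 CPM under S100A9-inh, 86.6, 81.4 and 74.9 CPM in Tr-BrM controls and 384, 386 and 381 CPM in BrM controls. Its BrM libraries stood far above the other 6, and the groups did not overlap. The change was -2.25 ± 0.04 (adjusted p = 3.87e-27) for Tr-BrM against BrM controls and -0.32 ± 0.0438 (adjusted p = 1.42e-06) for S100A9-inh against Tr-BrM controls. IFIT2, which lies in the same cluster (ENSG00000119922, chr10:89283694-89309276, forward strand), had 99.1, 105 and 101 CPM under S100A9-inh, 107, 95.95 and 93.1 CPM in Tr-BrM controls and 427, 434 and 426 CPM in BrM controls. Here the S100A9-inh and Tr-BrM libraries overlapped, and the change was -2.12 ± 0.0391 in Tr-BrM against BrM and 0.04 ± 0.0411 (adjusted p = 0.473) under S100A9-inh against Tr-BrM. IFIT1, which recognises RNA caps that lack a host methyl group, changed by -1.42 ± 0.0393 and -0.55 ± 0.0412 in those comparisons, with adjusted p of 1.24e-22 and 1.64e-11. IFIT5 changed by -0.55 ± 0.0504, the least of the family, in Tr-BrM against BrM. Under S100A9-inh it changed by -0.18 ± 0.0521 (adjusted p = 0.00964), a call lost without S100A9-inh replicate 3 or Tr-BrM replicate 3.

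Oligoadenylate synthetases (OAS) make 2-5A, the messenger that activates RNase L, while OASL lacks that activity. All 7 genes of this group, which also holds the nucleotide enzymes CMPK2 and RSAD2 (viperin) and the exonuclease ISG20, fell in H1650 Tr-BrM against BrM, and 5 of 7 fell under S100A9-inh against Tr-BrM. OASL (ENSG00000135114, chr12:121019111-121039242, reverse strand) had 36.01, 40.8 and 38.9 CPM under S100A9-inh, 44.5, 40.4 and 38.1 CPM in Tr-BrM controls and 278, 285 and 288 CPM in BrM controls. The Tr-BrM and S100A9-inh libraries overlapped far below BrM, and the change in Tr-BrM against BrM was -2.79 ± 0.0457 (adjusted p = 6.71e-28), the largest fall among the 47 genes. OAS2 had 56.6, 52.4 and 53.3 CPM under S100A9-inh, 95.6, 90.4 and 86.8 CPM in Tr-BrM controls and 190.4, 190.2 and 185 CPM in BrM controls, with no overlap between groups. Its changes were -1.05 ± 0.0385 (adjusted p = 9.21e-20) in Tr-BrM against BrM and -0.75 ± 0.042 (adjusted p = 5.11e-14) under S100A9-inh against Tr-BrM. OAS1 had 66.9, 70.3 and 68.7 CPM under S100A9-inh, 122, 114 and 115 CPM in Tr-BrM controls and 142, 141 and 139 CPM in BrM controls. OAS1 changed by -0.77 ± 0.0379 (adjusted p = 3.37e-15) under S100A9-inh against Tr-BrM and by -0.27 ± 0.0363 (adjusted p = 1.61e-07) in Tr-BrM against BrM. Among the nucleotide enzymes, CMPK2 changed by -0.98 ± 0.0722 and RSAD2 by -0.83 ± 0.0801 in Tr-BrM against BrM, and by -0.58 ± 0.0809 and -0.61 ± 0.0877 under S100A9-inh. OAS3 had 317, 336 and 319.8 CPM under S100A9-inh, 409, 412 and 402 CPM in Tr-BrM controls and 635, 633 and 616 CPM in BrM controls, again in separate steps. ISG20 had 13.8, 16.1 and 15.5 CPM under S100A9-inh, 18.1, 17.6 and 14.9 CPM in Tr-BrM controls and 50.8, 48.03 and 52.2 CPM in BrM controls. It fell by 1.57 (log2) in Tr-BrM against BrM, and its Tr-BrM and S100A9-inh libraries overlapped.

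Among dynamin-like GTPases and membrane restriction factors, 6 of 7 fell in H1650 Tr-BrM cells and all 7 fell under S100A9-inh against Tr-BrM. MX1, a GTPase that traps viral nucleocapsids (ENSG00000157601, chr21:41420304-41459214, forward strand), had 257, 259.8 and 258 CPM under S100A9-inh, 422, 406 and 403 CPM in Tr-BrM controls and 682, 668 and 670.3 CPM in BrM controls. The 3 groups formed separate steps, with changes of -0.72 ± 0.029 (adjusted p = 1.05e-18) in Tr-BrM against BrM and -0.67 ± 0.0296 (adjusted p = 3.33e-16) under S100A9-inh against Tr-BrM. IFITM2, which restricts viral entry at endosomes (ENSG00000185201, chr11:307631-315272, forward strand), had 10.8, 10.6 and 9.93 CPM under S100A9-inh, 15.7, 12.5 and 11.6 CPM in Tr-BrM controls and 50.5, 47.2 and 46.1 CPM in BrM controls. It fell by 1.86 (log2) in Tr-BrM against BrM and by 0.33 (log2) under S100A9-inh, the second call being lost without Tr-BrM replicate 1. IFITM1 had 2.17, 1.60 and 1.80 CPM under S100A9-inh, 3.17, 3.26 and 1.85 CPM in Tr-BrM controls and 7.18, 7.09 and 8.75 CPM in BrM controls. Its Tr-BrM and S100A9-inh libraries overlapped, and its call under S100A9-inh (-0.58 ± 0.198, adjusted p = 0.0278) was lost without S100A9-inh replicate 2 or 3 or Tr-BrM replicate 1 or 2, and in DESeq2. In the annotation, 32.5% of the exonic bases of IFITM1 and 22.7% of those of IFITM2 are shared between the pair, so reads there may have gone to either. IFITM3, at 172, 173 and 169 CPM under S100A9-inh, 230.5, 224 and 218 CPM in Tr-BrM controls and 381, 376 and 378 CPM in the BrM controls, was separate in all groups. PLSCR1, a phospholipid scramblase, changed by -0.26 ± 0.0347 in Tr-BrM against BrM and -0.33 ± 0.0352 under S100A9-inh. MX2, at 1.80 to 2.87 CPM under S100A9-inh, 2.28 to 4.83 CPM in Tr-BrM controls and 1.59 to 1.85 CPM in the BrM controls, was the member of the group that rose in Tr-BrM against BrM (1.20 ± 0.232, adjusted p = 5.13e-05). Its fall under S100A9-inh was lost without Tr-BrM replicate 2.

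**Figure D3:**
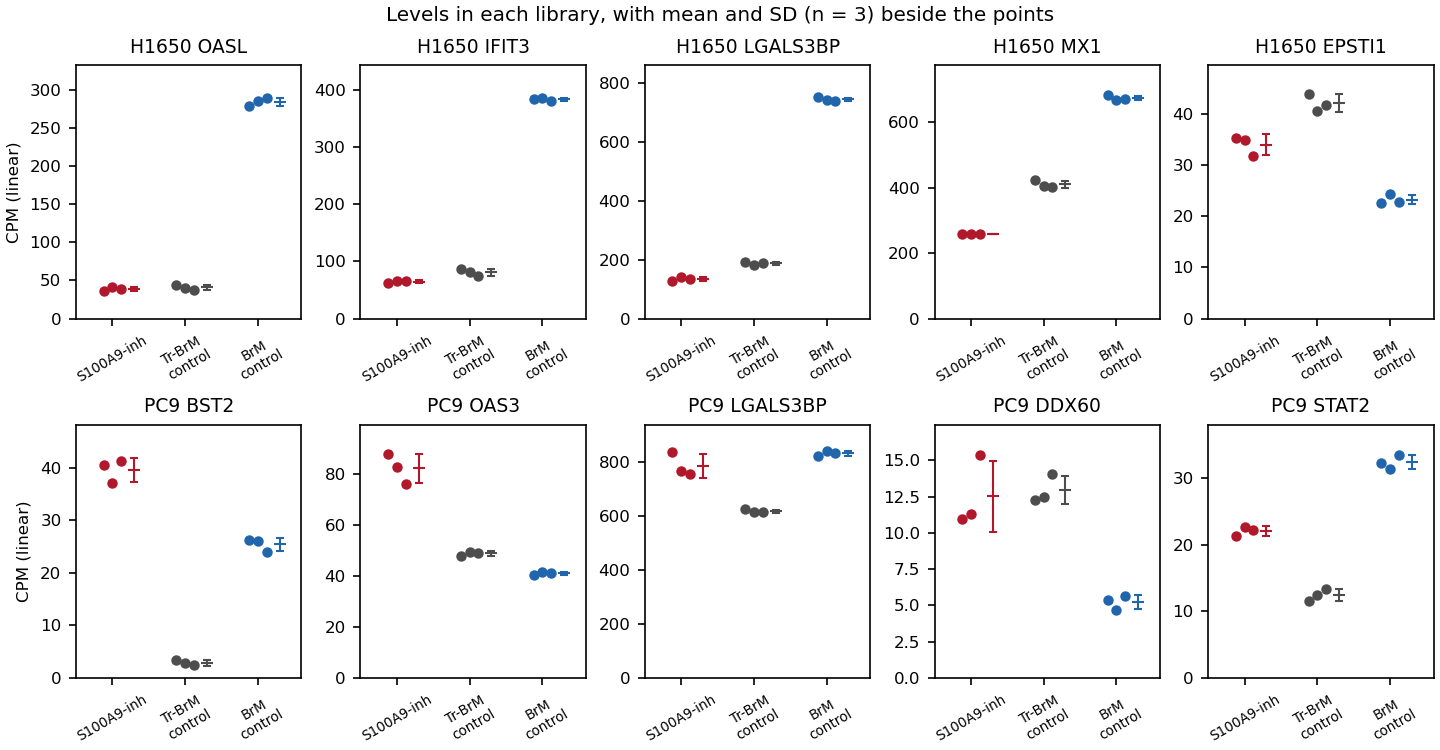
CPM of 10 genes in each library on a linear scale from 0, with H1650 in the upper row and PC9 in the lower; points are libraries (3 per group), and the bar beside them is the mean ± SD. In H1650 the S100A9-inh and Tr-BrM libraries of OASL overlap, those of IFIT3, LGALS3BP and MX1 are separate, and BST2 in PC9 is at 2.40 to 3.38 CPM in the Tr-BrM controls, far below both other groups.

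In H1650, 4 of the 7 other interferon-induced genes fell and 2 rose in Tr-BrM against BrM, and all 7 fell under S100A9-inh against Tr-BrM. LGALS3BP, a secreted glycoprotein that binds galectin-3 (ENSG00000108679, chr17:78971238-78980109, reverse strand), had 128, 142 and 135 CPM under S100A9-inh, 192, 182 and 188 CPM in Tr-BrM controls and 751, 743 and 740.5 CPM in BrM controls. All 3 groups were separate, and LGALS3BP changed by -1.99 ± 0.0341 (adjusted p = 1.76e-27) in Tr-BrM against BrM and by -0.48 ± 0.0353 (adjusted p = 1.64e-11) under S100A9-inh against Tr-BrM. IFI44L, an interferon-induced gene next to IFI44 (ENSG00000137959, chr1:78619922-78646145, forward strand), had 15.9, 15.9 and 15.2 CPM under S100A9-inh, 36.2, 35.5 and 30.4 CPM in Tr-BrM controls and 57.7, 58.5 and 52.8 CPM in BrM controls. It showed the largest fall of the 47 under S100A9-inh against Tr-BrM, at -1.12 ± 0.0676 (adjusted p = 2.12e-13), and it also fell in Tr-BrM against BrM (-0.73 ± 0.059). IFI44 beside it changed by -1.23 ± 0.0384 and -0.54 ± 0.0417 in those comparisons, and IFI35, a leucine zipper protein, by -0.58 ± 0.0488 and -0.50 ± 0.0516. IFI27, at 398 ± 12.8, 551 ± 17.9 and 550.3 ± 9.99 CPM (SD, n = 3) under S100A9-inh, in the Tr-BrM controls and in the BrM controls, did not pass in Tr-BrM against BrM and fell under S100A9-inh (-0.47 ± 0.0317, adjusted p = 2.36e-12).

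All 5 genes of the ISG15 system fell in Tr-BrM against BrM, from -1.24 ± 0.0415 for HERC5, the main ISG15 ligase, to -0.41 ± 0.0399 for HERC6. Under S100A9-inh 4 of these 5 fell, with UBE2L6, the ISG15-conjugating enzyme, at -0.63 ± 0.0391, USP18, the protease that removes ISG15, at -0.41 ± 0.0512, and HERC5 at 0.01 ± 0.0438 (adjusted p = 0.885). ISG15 itself had 207, 202 and 204 CPM under S100A9-inh, 256, 220.0 and 218 CPM in Tr-BrM controls and 434, 449.8 and 460.2 CPM in BrM controls. Its groups were separate, and the change was -0.95 ± 0.0418 (adjusted p = 6.51e-18) in Tr-BrM against BrM and -0.18 ± 0.0425 (adjusted p = 0.00185) under S100A9-inh.

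Among 8 ADP-ribosylation and other nuclear or cytoplasmic effectors, 7 fell and TRIM22 rose in H1650 Tr-BrM against BrM, and 7 fell under S100A9-inh against Tr-BrM. XAF1, a proapoptotic antagonist of XIAP, changed most in Tr-BrM (-1.21 ± 0.0683), followed by SAMD9 (-0.85 ± 0.04), which did not pass under S100A9-inh (0.06 ± 0.0406, adjusted p = 0.311). In the annotation 38.3% of the exonic bases of XAF1 overlap a gene on the opposite strand. PARP9 had 88.1, 83.6 and 88.8 CPM under S100A9-inh, 132, 123 and 126 CPM in Tr-BrM controls and 144, 147 and 142 CPM in BrM controls. It changed by -0.54 ± 0.0371 (adjusted p = 2.86e-12) under S100A9-inh against Tr-BrM and by -0.19 ± 0.0363 (adjusted p = 4.53e-05) in Tr-BrM against BrM. PARP14 (-0.50 ± 0.037 and -0.36 ± 0.0382) and DTX3L (-0.57 ± 0.041 and -0.25 ± 0.0423) had the larger change in Tr-BrM against BrM. The sizes of these steps were not tested against each other. SP100 changed by -0.32 ± 0.0403 and -0.31 ± 0.0411, and SAMD9L by -0.57 ± 0.0633 and -0.30 ± 0.0662.

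Of 6 RNA sensors and double-stranded RNA enzymes, 5 fell in H1650 Tr-BrM against BrM and 5 under S100A9-inh against Tr-BrM. RIGI, which detects 5′-triphosphate RNA (ENSG00000107201, chr9:32455705-32526324, reverse strand), had 66.3, 60.4 and 62.00 CPM under S100A9-inh, 68.9, 66.6 and 62.3 CPM in Tr-BrM controls and 196, 197 and 189.9 CPM in BrM controls. Its BrM libraries were highest, and the other 2 groups overlapped. RIGI changed by -1.56 ± 0.0409 (adjusted p = 3.67e-23) in Tr-BrM against BrM and by -0.07 ± 0.0438 (adjusted p = 0.279) under S100A9-inh against Tr-BrM. IFIH1 (MDA5), the sensor of long double-stranded RNA, had 69.3, 70.8 and 69.2 CPM under S100A9-inh, 76.5, 77.99 and 73.3 CPM in Tr-BrM controls and 154, 148 and 142 CPM in BrM controls. The groups were separate, with changes of -0.96 ± 0.0388 (adjusted p = 9.1e-19) and -0.12 ± 0.0405 (adjusted p = 0.0206), the second of which was lost without S100A9-inh replicate 1 or 3 or Tr-BrM replicate 2, and with no filter on low counts. DDX60, a helicase linked to RIG-I signalling, had 31.6, 29.5 and 32.9 CPM under S100A9-inh, 48.3, 52.9 and 50.1 CPM in Tr-BrM controls and 69.5, 67.5 and 66.7 CPM in BrM controls. DDX60 changed by -0.69 ± 0.0509 (adjusted p = 1.42e-11) under S100A9-inh against Tr-BrM and by -0.42 ± 0.0478 (adjusted p = 7.56e-09) in Tr-BrM against BrM. DDX60L changed by -0.28 ± 0.0367 and -0.49 ± 0.036, and the kinase EIF2AK2 by -0.17 ± 0.0374 and -0.30 ± 0.0372, in the same comparisons. The RNA-editing enzyme ADAR, by contrast, did not pass in Tr-BrM against BrM (-0.06 ± 0.0284, adjusted p = 0.0883) and fell under S100A9-inh (-0.24 ± 0.0284, adjusted p = 9.59e-08).

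The genes that rose in H1650 Tr-BrM against BrM were EPSTI1, TRIM22, IFI6, STAT2, IRF7 and MX2. EPSTI1, an epithelial-stromal interaction gene (ENSG00000133106, chr13:42886388-42992271, reverse strand), had 35.3, 34.8 and 31.6 CPM under S100A9-inh, 43.8, 40.5 and 41.7 CPM in Tr-BrM controls and 22.6, 24.2 and 22.8 CPM in BrM controls. It was highest in the Tr-BrM controls and lowest in the BrM controls, and it was the 1 gene at 5 CPM or more that was higher under S100A9-inh than in BrM controls (0.55 ± 0.0602, adjusted p = 5.16e-09). TRIM22, an antiviral ubiquitin ligase, had 15.4, 14.8 and 14.03 CPM under S100A9-inh, 29.6, 26.6 and 27.3 CPM in Tr-BrM controls and 19.1, 19.4 and 21.1 CPM in BrM controls. IFI6, a small mitochondrial protein and the highest of the 48 genes per kilobase of exon in H1650, had 1120.0, 1075 and 1093 CPM under S100A9-inh, 1686, 1613 and 1633 CPM in Tr-BrM controls and 1164, 1163 and 1178 CPM in BrM controls. In both the S100A9-inh libraries were lowest and the Tr-BrM controls highest. TRIM22 changed by 0.49 ± 0.068 (adjusted p = 3.58e-07) in Tr-BrM against BrM and -0.91 ± 0.0685 (adjusted p = 2.1e-11) under S100A9-inh, and IFI6 by 0.49 ± 0.0279 and -0.58 ± 0.0278.

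For S100A9-inh against BrM controls in H1650, the 6 largest falls at 5 CPM or more were OASL (-2.88 ± 0.0452), IFIT3 (-2.57 ± 0.0404), LGALS3BP (-2.47 ± 0.0348), IFITM2 (-2.20 ± 0.0771), IFIT2 (-2.08 ± 0.0385) and IFITM1 (-2.03 ± 0.172). IFI6 was lower too, by little (-0.09 ± 0.0279, adjusted p = 0.00524, not past the test with library size scaling), and MX2 did not pass (0.42 ± 0.247, adjusted p = 0.141).

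The transcription factors of the response did not move together in H1650. STAT2 (ENSG00000170581, chr12:56341597-56360155, reverse strand) had 102, 103 and 101 CPM under S100A9-inh, 131, 136 and 130.2 CPM in Tr-BrM controls and 119, 118 and 119 CPM in BrM controls. It rose by 0.16 ± 0.0343 (adjusted p = 0.000149) in Tr-BrM against BrM and fell under S100A9-inh (-0.38 ± 0.034, adjusted p = 6.47e-10). IRF1, an activator also induced by interferon gamma (ENSG00000125347, chr5:132481609-132490798, reverse strand), had 18.4, 18.4 and 17.8 CPM under S100A9-inh, 16.7, 17.6 and 15.9 CPM in Tr-BrM controls and 32.3, 31.9 and 31.4 CPM in BrM controls. It fell in Tr-BrM against BrM (-0.92 ± 0.0633, adjusted p = 2.16e-13) and was at 0.12 ± 0.066 (adjusted p = 0.206) under S100A9-inh against Tr-BrM, where the libraries did not overlap but the test was not passed. IRF7, the amplifier of interferon alpha genes, had 1.36, 1.48 and 1.03 CPM under S100A9-inh, 1.35, 1.94 and 0.972 CPM in Tr-BrM controls and 0.0903, 0.409 and 0.177 CPM in BrM controls. It rose in Tr-BrM against BrM (2.63 ± 0.415, adjusted p = 2.72e-06). IRF9 (ENSG00000213928, chr14:24161053-24166565, forward strand), the DNA-binding partner of STAT2, had 0 counts in all 9 H1650 libraries. In the annotation 48.4% of its exonic bases lie also in AL136295.5 on the same strand, and that gene too had 0 counts in H1650, so whether the transcript is absent cannot be told from these counts.

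**Figure D4:**
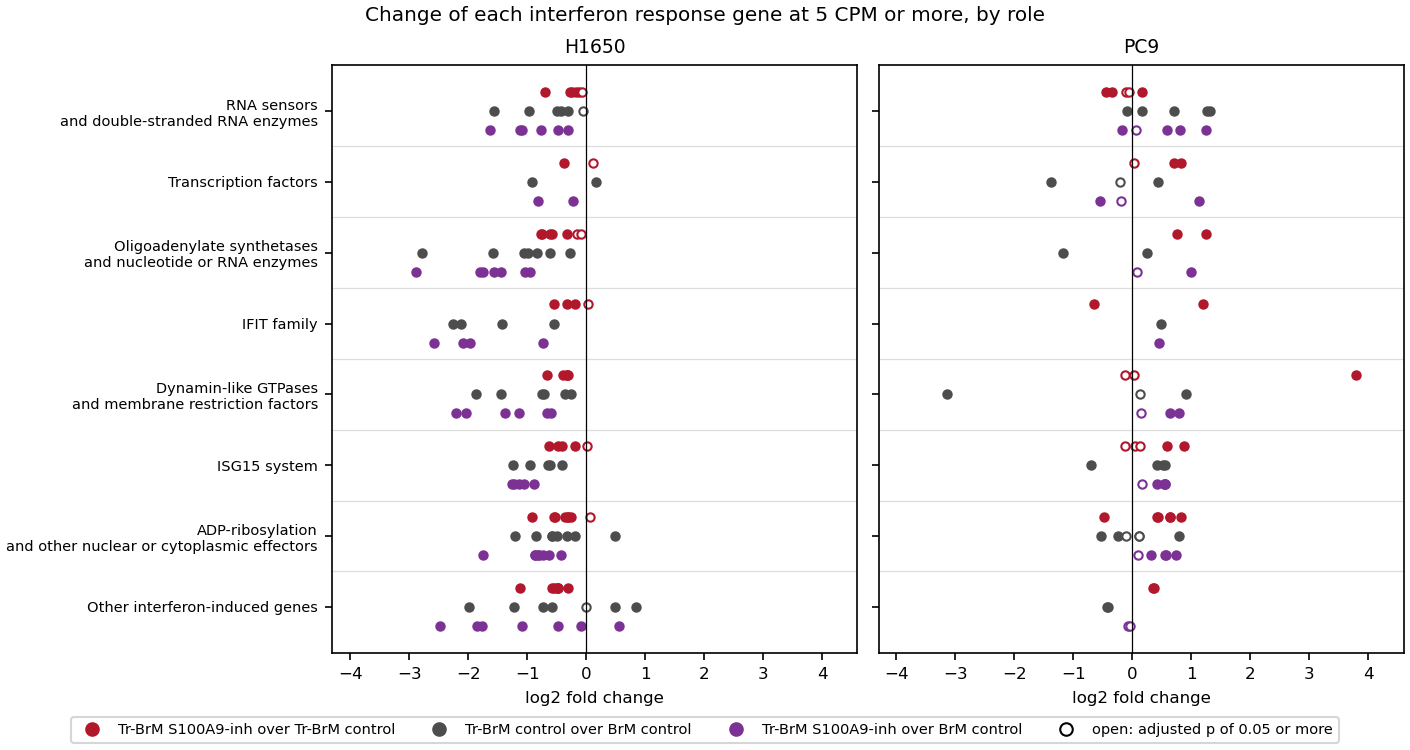
Log2 fold change of each gene whose higher group reached 5 CPM, by role (rows) and line (panels); colours give the 3 comparisons, filled points passed an adjusted p of 0.05 and open points did not. In H1650 nearly all points lie left of 0, and in PC9 the S100A9-inh points lie on both sides of 0, with BST2 at 3.79 farthest to the right.

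In PC9 about as many interferon response genes rose as fell in Tr-BrM against BrM, with counts near the shares of all genes given below. Under S100A9-inh most of those that passed the test rose. Levels were not compared between the lines. Their summed level was 2000, 1945 and 1916 CPM under S100A9-inh, 1604, 1609 and 1611 CPM in Tr-BrM controls and 1764, 1765 and 1773 CPM in the BrM controls. LGALS3BP alone made up 787 ± 45.3, 619 ± 6.06 and 834 ± 9.28 CPM (SD, n = 3). Only 38 of the 48 genes passed the filter on low counts, and 28 reached a mean of 5 CPM in some group. CMPK2, IFI27, IFI44L, IFITM1, MX2, OAS2, RIGI, RSAD2, TRIM22 and XAF1 did not pass and were below 1 CPM in every library. XAF1 had 21 counts over the S100A9-inh libraries, 18 over the Tr-BrM controls and 0 over the BrM controls. With a floor of 3 counts over the group in place of 0, it was 7.18-fold higher under S100A9-inh and 6.32-fold higher in the Tr-BrM controls than in BrM. These values leave out the counting error of the higher group and are not lower limits. On the opposite strand 38.3% of the exonic bases of XAF1 overlap another annotated gene, and the use of strand in counting is not given.

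For Tr-BrM against BrM controls in PC9, 14 of the 38 genes tested rose, 15 fell and 9 did not pass, beside 29.6% higher and 30.3% lower of all 16169 genes tested. Under S100A9-inh against Tr-BrM controls 23 rose, 5 fell and 10 did not pass, beside 26.3% higher and 26.1% lower of all genes. Against BrM controls, S100A9-inh cells had 23 higher, 3 lower and 12 not past the test, beside 22.7% higher and 23.6% lower. Median changes were 0.01, 0.42 and 0.55 in these comparisons, and -0.04, 0.42 and 0.55 with genes of few counts put at their floor value or ratio, or left out where both groups had 3 counts or fewer. IFI44, in both counts of 23, passed the filter on low counts only through the S100A9-inh libraries. IFITM2, among the 14 that rose and the 5 that fell, passed it only through the Tr-BrM controls. Their calls follow in part from the filter and are not support for a direction, here or in the counts below. Without S100A9-inh replicate 1, 24 genes rose and 6 fell against Tr-BrM controls, among them all 23 and all 5, and 25 were higher and 3 lower against BrM controls. Those higher against BrM were again all 23, and of those lower EIF2AK2 was lost and LGALS3BP added. The order S100A9-inh above BrM above Tr-BrM without overlap was seen in 5 of the 38 genes (BST2, IFIT1, IFIT2, OAS1 and PARP9), beside 3.27% of all tested genes, and in 24 genes the groups overlapped.

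BST2 (tetherin) holds budding virions at the cell surface (ENSG00000130303, chr19:17402939-17405648, reverse strand). Of the PC9 genes at 5 CPM or more in a group, BST2 had the largest log2 change in Tr-BrM against BrM and under S100A9-inh against Tr-BrM, but not under S100A9-inh against BrM. It had 40.5, 37.02 and 41.2 CPM under S100A9-inh, 3.38, 2.77 and 2.40 CPM in Tr-BrM controls and 26.2, 26.1 and 23.9 CPM in BrM controls. The Tr-BrM controls were far below both other groups, and S100A9-inh was above BrM. Changes were -3.15 ± 0.11 (adjusted p = 7.04e-21) in Tr-BrM against BrM, 3.79 ± 0.105 (adjusted p = 4.39e-23) under S100A9-inh against Tr-BrM and 0.64 ± 0.074 (adjusted p = 1.78e-08) under S100A9-inh against BrM. In H1650 BST2 had 324, 329 and 333 CPM under S100A9-inh, 425, 393 and 396 CPM in Tr-BrM controls and 512, 521 and 523 CPM in BrM controls. It fell by 0.36 (log2) in Tr-BrM against BrM and by 0.30 (log2) under S100A9-inh.

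Several other PC9 genes were low in the Tr-BrM controls and higher under S100A9-inh. ISG15, the ubiquitin-like modifier (ENSG00000187608, chr1:1001138-1014540, forward strand), had 20.4, 15.4 and 15.6 CPM under S100A9-inh, 9.95, 10.1 and 7.88 CPM in Tr-BrM controls and 15.3, 15.7 and 14.5 CPM in BrM controls. ISG20 had 6.53, 4.43 and 5.86 CPM under S100A9-inh, 2.08, 2.68 and 2.25 CPM in Tr-BrM controls and 6.23, 5.20 and 4.55 CPM in BrM controls. In both genes the Tr-BrM libraries were lowest, and the S100A9-inh and BrM libraries overlapped. ISG15 changed by -0.70 ± 0.113 (adjusted p = 3.14e-06) in Tr-BrM against BrM and 0.88 ± 0.112 (adjusted p = 8.47e-08) under S100A9-inh, and ISG20 by -1.18 ± 0.183 and 1.25 ± 0.183. SP100, a scaffold of PML nuclear bodies, had 33.7, 36.8 and 35.6 CPM under S100A9-inh, 23.02, 22.8 and 22.8 CPM in Tr-BrM controls and 31.9, 32.2 and 35.2 CPM in BrM controls. LGALS3BP had 839, 767 and 755 CPM under S100A9-inh, 626, 615 and 615 CPM in Tr-BrM controls and 824, 842 and 835 CPM in BrM controls. Both fell in Tr-BrM against BrM (-0.53 ± 0.0684 and -0.43 ± 0.036) and rose under S100A9-inh against Tr-BrM (0.63 ± 0.0681 and 0.35 ± 0.036), with S100A9-inh and BrM libraries overlapping.

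IFIT2 in PC9 had 4.31, 5.62 and 5.75 CPM under S100A9-inh, 2.13, 2.43 and 2.30 CPM in Tr-BrM controls and 3.92, 3.55 and 3.99 CPM in BrM controls. All 3 groups were separate, and it rose by 1.19 ± 0.172 (adjusted p = 8.86e-07) under S100A9-inh against Tr-BrM. PARP9, an ADP-ribosyltransferase that works with the ubiquitin ligase DTX3L (ENSG00000138496, chr3:122527924-122564577, reverse strand), had 31.3, 32.7 and 34.2 CPM under S100A9-inh, 18.7, 19.7 and 17.1 CPM in Tr-BrM controls and 22.9, 22.8 and 20.3 CPM in BrM controls. It rose by 0.82 ± 0.0763 (adjusted p = 1.65e-10) under S100A9-inh against Tr-BrM, and DTX3L, whose gene starts beside it on the other strand, by 0.44 ± 0.0609 (adjusted p = 3.57e-07). PARP14, a further family member, had 58.8, 68.8 and 65.8 CPM under S100A9-inh, 39.6, 40.9 and 44.6 CPM in Tr-BrM controls and 36.04, 40.2 and 39.5 CPM in BrM controls. The S100A9-inh libraries were above the other 6, which overlapped with each other, and the change against Tr-BrM was 0.63 ± 0.064 (adjusted p = 1.15e-09). OAS3, the largest of the OAS proteins (ENSG00000111331, chr12:112938352-112973249, forward strand), had 87.6, 82.7 and 76.2 CPM under S100A9-inh, 47.8, 49.5 and 49.04 CPM in Tr-BrM controls and 40.2, 41.5 and 41.2 CPM in BrM controls. Groups were separate in steps, with changes of 0.25 ± 0.0581 (adjusted p = 0.000424) in Tr-BrM against BrM and 0.75 ± 0.0551 (adjusted p = 8.39e-13) under S100A9-inh.

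Genes of few counts in PC9 gave large ratios with wide error. IFIT1 had 1.94, 2.49 and 2.85 CPM under S100A9-inh, 0.625, 0.0486 and 0.153 CPM in Tr-BrM controls and 1.08, 1.36 and 1.25 CPM in BrM controls and rose by 3.13 ± 0.411 (adjusted p = 1.56e-07) under S100A9-inh against Tr-BrM. OASL had 2.56, 2.86 and 2.79 CPM under S100A9-inh, 0.312, 0.292 and 0.511 CPM in Tr-BrM controls and 0.490, 0.826 and 0.836 CPM in BrM controls and rose by 2.86 ± 0.327 (adjusted p = 1.16e-08). IFI44 had 45 counts over the S100A9-inh libraries, 3 over the Tr-BrM controls and 0 over the BrM controls. Its ratio to Tr-BrM was 14.6 (exact 95% counting interval 4.68 to 73.4). With a floor of 3 counts over the group in place of 0, it was 15.4-fold higher than in BrM, which leaves out the counting error of the higher group. IFITM2 had 25, 84 and 2 counts in the same order of groups, a ratio of 44.3 (11.9 to 371) for Tr-BrM over BrM. Such intervals cover counting error only.

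Other PC9 genes rose in Tr-BrM against BrM. DDX60 (ENSG00000137628, chr4:168216293-168318807, reverse strand) had 10.9, 11.3 and 15.4 CPM under S100A9-inh, 12.3, 12.5 and 14.1 CPM in Tr-BrM controls and 5.34, 4.71 and 5.62 CPM in BrM controls. Its relative DDX60L had 33.5, 36.4 and 35.8 CPM under S100A9-inh, 44.99, 49.8 and 48.9 CPM in Tr-BrM controls and 19.6, 19.8 and 20.7 CPM in BrM controls. In both the BrM libraries were lowest. DDX60 rose by 1.31 ± 0.129 (adjusted p = 3.78e-10) in Tr-BrM and was at -0.05 ± 0.114 (adjusted p = 0.72) under S100A9-inh against Tr-BrM. DDX60L rose by 1.26 ± 0.0667 (adjusted p = 2.25e-16) and was lower under S100A9-inh than in Tr-BrM, at -0.44 ± 0.0626 (adjusted p = 5.51e-07). IFITM3, the family member best known for blocking influenza entry (ENSG00000142089, chr11:319669-327537, reverse strand), had 156, 126 and 120.2 CPM under S100A9-inh, 154, 137 and 146 CPM in Tr-BrM controls and 83.4, 77.2 and 72.2 CPM in BrM controls. It rose by 0.91 ± 0.0668 (adjusted p = 5.15e-13) in Tr-BrM against BrM, and its S100A9-inh libraries overlapped those of Tr-BrM. On the opposite strand 21.3% of the exonic bases of IFITM3 overlap another annotated gene, and the use of strand in counting is not given in the sources used here.

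SAMD9L, a growth-restricting antiviral factor, had 3.58, 3.41 and 3.76 CPM under S100A9-inh, 3.54, 5.64 and 5.83 CPM in Tr-BrM controls and 2.99, 2.72 and 2.97 CPM in BrM controls. IFIH1 had 5.61, 5.53 and 6.82 CPM under S100A9-inh, 5.73, 7.05 and 6.49 CPM in Tr-BrM controls and 3.83, 3.98 and 4.09 CPM in BrM controls. HERC6, a relative of HERC5, had 9.58, 9.96 and 9.24 CPM under S100A9-inh, 10.6, 10.4 and 10.5 CPM in Tr-BrM controls and 7.65, 7.09 and 6.78 CPM in BrM controls. In all 3 the BrM libraries were lowest. All 3 rose in Tr-BrM against BrM, by 0.79 ± 0.178, 0.70 ± 0.143 and 0.55 ± 0.107. Under S100A9-inh against Tr-BrM SAMD9L fell (-0.49 ± 0.173, adjusted p = 0.0193, not past the test in DESeq2 or without Tr-BrM replicate 2 or 3 or S100A9-inh replicate 2), and IFIH1 and HERC6 did not pass. IFIT5, unlike its relatives, had 4.11, 4.15 and 4.24 CPM under S100A9-inh, 5.10, 7.78 and 6.70 CPM in Tr-BrM controls and 4.12, 4.86 and 5.06 CPM in BrM controls and fell under S100A9-inh against Tr-BrM (-0.65 ± 0.155, adjusted p = 0.000707). EIF2AK2 (PKR), the kinase that halts translation on double-stranded RNA, had 72.4, 88.7 and 88.6 CPM under S100A9-inh, 97.5, 111 and 109 CPM in Tr-BrM controls and 95.7, 93.01 and 94.1 CPM in BrM controls. It fell under S100A9-inh against Tr-BrM (-0.35 ± 0.0598, adjusted p = 1.38e-05), and its fall against BrM (-0.18 ± 0.06, adjusted p = 0.0143) did not pass without S100A9-inh replicate 1, the lowest library, nor with library size or upper quartile scaling.

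Set against BrM controls, the largest rises of S100A9-inh PC9 cells at 5 CPM or more were those of DDX60 (1.25 ± 0.129), IRF1 (1.13 ± 0.12), OAS3 (1.0 ± 0.0558), DDX60L (0.81 ± 0.0683), IFITM3 (0.79 ± 0.0669) and PARP14 (0.74 ± 0.0642). Of the ISG15 system, UBE2L6 (0.42 ± 0.0743), USP18 (0.52 ± 0.143) and HERC6 rose and ISG15 fell in Tr-BrM against BrM, and ISG15 and HERC5 (0.59 ± 0.173, adjusted p = 0.00491) rose under S100A9-inh against Tr-BrM. ADAR had 328, 338 and 319 CPM under S100A9-inh, 297, 293 and 292 CPM in Tr-BrM controls and 321, 307 and 318 CPM in BrM controls. Its changes were small, at -0.10 ± 0.0361 (adjusted p = 0.0159) in Tr-BrM against BrM and 0.16 ± 0.0361 (adjusted p = 0.000409) under S100A9-inh. The Tr-BrM against BrM call was lost without BrM replicate 1 or 3 or Tr-BrM replicate 2 or 3, and with upper quartile scaling. SAMD9 (0.41 ± 0.0832, adjusted p = 0.000103), IFI35 (0.37 ± 0.0744, adjusted p = 0.000108), IFIT3 (0.90 ± 0.221, adjusted p = 0.000933) and OAS1 (1.44 ± 0.223, adjusted p = 2.63e-06) also rose under S100A9-inh against Tr-BrM. EPSTI1, below 3 CPM in all libraries, rose by 1.27 ± 0.443 (adjusted p = 0.0171). That call was lost without Tr-BrM replicate 1 or 3 or S100A9-inh replicate 2, and the HERC5 call without Tr-BrM replicate 1. PLSCR1 and IFI6 passed no test in PC9 with all libraries, and MX1 rose in Tr-BrM against BrM (1.06 ± 0.181, adjusted p = 7.88e-06).

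The counts by role here, and for the transcription factors below, stand beside these shares of all genes tested in PC9. Under S100A9-inh against Tr-BrM 26.3% rose and 26.1% fell, and in Tr-BrM against BrM 29.6% rose and 30.3% fell. With so few genes in a role, counts of 1 or 2 are near these shares. By role, all 4 tested OAS and RNA enzyme genes rose in PC9 under S100A9-inh against Tr-BrM, as did 3 of 4 IFIT genes, 5 of 6 ADP-ribosylation and other effectors and 4 of 5 other interferon-induced genes. Among 5 RNA sensors and double-stranded RNA enzymes, 1 rose and 2 fell, and among 5 GTPases and membrane factors 1 rose and 1 fell (2 fell without S100A9-inh replicate 1, IFITM3 being added). In Tr-BrM against BrM the RNA sensor group had 4 higher and 1 lower, the GTPase and membrane group 3 higher and 1 lower, and the OAS group 1 higher and 3 lower. Of these 3 falls, those of OAS1 and OASL were both lost without BrM replicate 2 or 3 or Tr-BrM replicate 1 or 2, which left 1 lower. The 1 fall among RNA sensors was that of ADAR.

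Of the 4 transcription factors in PC9, 2 fell and 1 rose in Tr-BrM against BrM, and 3 rose under S100A9-inh. STAT2 had 21.2, 22.7 and 22.2 CPM under S100A9-inh, 11.5, 12.4 and 13.4 CPM in Tr-BrM controls and 32.2, 31.4 and 33.4 CPM in BrM controls. The groups were separate, with BrM highest and Tr-BrM lowest. It changed by -1.38 ± 0.0782 (adjusted p = 1.13e-15) in Tr-BrM against BrM, rose by 0.82 ± 0.0815 (adjusted p = 6.11e-10) under S100A9-inh against Tr-BrM and was below BrM (-0.55 ± 0.0722, adjusted p = 1.76e-07). IRF1 had 13.7, 13.97 and 12.4 CPM under S100A9-inh, 7.03, 9.88 and 7.62 CPM in Tr-BrM controls and 6.33, 5.68 and 6.27 CPM in BrM controls. It ran in the order S100A9-inh, Tr-BrM, BrM from high to low, with changes of 0.43 ± 0.128 (adjusted p = 0.00489) in Tr-BrM against BrM, 0.70 ± 0.115 (adjusted p = 6.02e-06) under S100A9-inh against Tr-BrM and 1.13 ± 0.12 (adjusted p = 3.12e-09) against BrM. The Tr-BrM against BrM call was lost without Tr-BrM replicate 2, the highest of its group, and 22.0% of the exonic bases of IRF1 overlap genes on the opposite strand. IRF7 had 6.29, 5.72 and 6.29 CPM under S100A9-inh, 5.36, 6.67 and 5.98 CPM in Tr-BrM controls and 7.06, 6.66 and 7.15 CPM in BrM controls and passed no test. IRF9 had 1.84, 2.03 and 1.83 CPM under S100A9-inh, 0.781, 0.681 and 1.02 CPM in Tr-BrM controls and 1.76, 1.55 and 2.04 CPM in BrM controls. Its Tr-BrM libraries were lowest, and it changed by -1.11 ± 0.279 (adjusted p = 0.00102) in Tr-BrM against BrM and by 1.20 ± 0.277 (adjusted p = 0.000552) under S100A9-inh against Tr-BrM. AL136295.5, which shares exons with it, had 12 to 35 counts per PC9 library. RIGI was at 0.269 to 0.415 CPM under S100A9-inh, 0.243 to 0.260 CPM in Tr-BrM controls and 0.194 to 0.441 CPM in the BrM controls and was not tested.

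Whether the change of a gene differed between the lines was tested as an interaction in 1 edgeR model of all 18 libraries. For S100A9-inh against Tr-BrM controls, 23 of the 27 genes that reached 5 CPM in a group of both lines differed, 22 with the higher change in PC9 and IFIT5 with the lower. Without PC9 Tr-BrM replicate 2 the IFIT5 difference did not pass. Of the 37 genes that passed the filter in each line on its own, 30 had the higher and 2 the lower change in PC9, beside 20.7% and 19.7% of all 19076 genes tested. For Tr-BrM against BrM controls, 22 of the 27 differed, 19 with the higher change in PC9, and BST2, SP100 and STAT2 with the lower. Without PC9 BrM replicate 3 the SP100 difference did not pass. Of 36 genes, which leave out IFI44 at 3 counts or fewer in both PC9 groups, 23 had the higher and 6 the lower change in PC9, beside 27.8% and 26.8% of all genes. In 16 genes S100A9-inh against Tr-BrM gave a fall in H1650 and a rise in PC9 (ADAR, BST2, DTX3L, EPSTI1, IFI35, IFI44, IFIT1, IFIT3, ISG15, LGALS3BP, OAS1, OAS3, PARP14, PARP9, SP100 and STAT2), and in 5 a fall in both lines (DDX60L, EIF2AK2, IFIT5, IFITM2 and SAMD9L). Of all genes tested in each line, 13.8% fell in H1650, and 26.3% rose and 26.1% fell in PC9. The share of all genes with both calls was not computed. EPSTI1, IFI44, IFIT1, IFIT3, OAS1 and IFITM2 were below 5 CPM in every PC9 group. Of these, IFI44 and IFITM2 passed the PC9 filter on low counts only through the group where each was highest.

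For each comparison the 6 genes with the smallest p among those 27 are given, as the change in PC9 minus that in H1650. For S100A9-inh against Tr-BrM they were 4.09 ± 0.0961 (adjusted p = 9.91e-31) in BST2, 1.37 ± 0.078 (adjusted p = 4.71e-18) in PARP9 and 1.21 ± 0.0789 (adjusted p = 3.12e-16) in STAT2. OAS3 differed by 1.09 ± 0.0587 (adjusted p = 8.7e-19), PARP14 by 1.0 ± 0.0746 (adjusted p = 2.01e-14) and LGALS3BP by 0.83 ± 0.0533 (adjusted p = 2.25e-16). In these 6 genes the change was positive in PC9 and negative in H1650. For Tr-BrM against BrM the difference was -2.79 ± 0.104 (adjusted p = 6.62e-25) in BST2 and -1.54 ± 0.0759 (adjusted p = 7.62e-21) in STAT2, with the lower change in PC9. It was 1.75 ± 0.0711 (adjusted p = 1.26e-23) in DDX60L, 1.66 ± 0.079 (adjusted p = 2.36e-21) in IFITM3, 1.56 ± 0.0522 (adjusted p = 1.73e-26) in LGALS3BP and 0.87 ± 0.0613 (adjusted p = 6.61e-16) in OAS3. Both interactions use the same Tr-BrM libraries, and the gene models behind the tables of the 2 lines can differ.

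**Figure D5:**
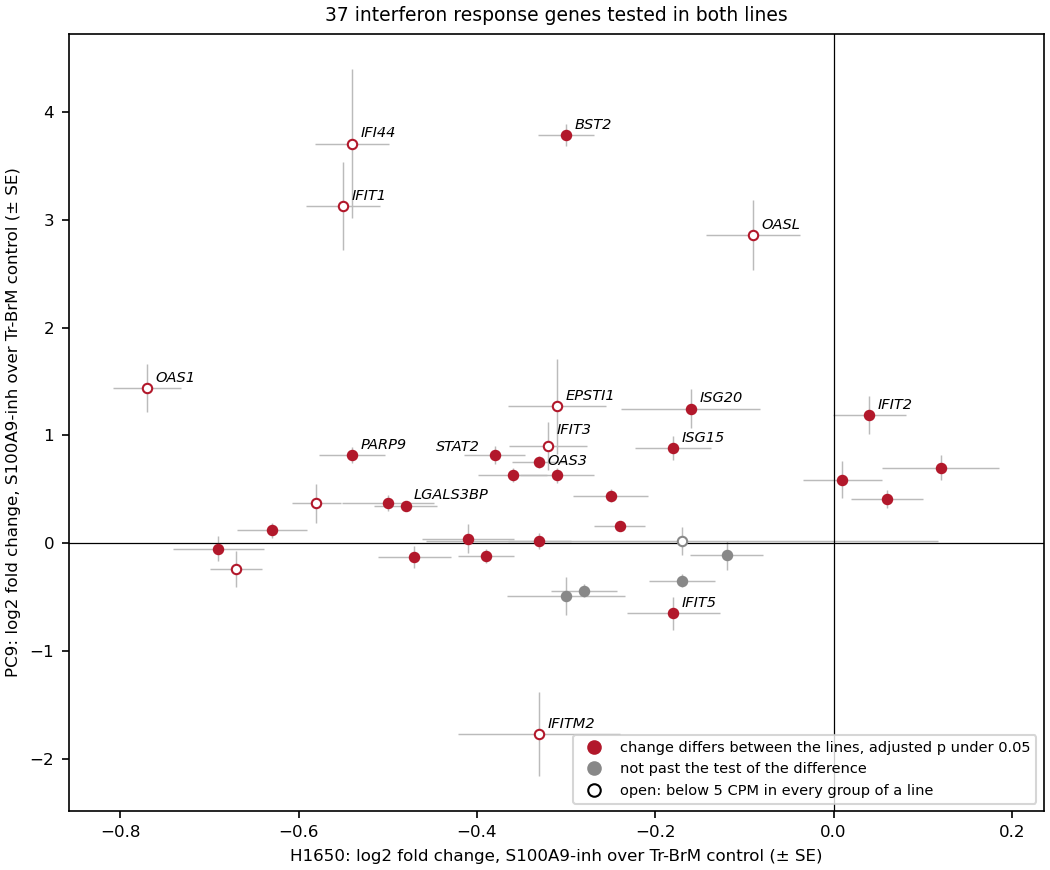
Log2 fold change of S100A9-inh over Tr-BrM controls in PC9 (vertical) and in H1650 (horizontal, on a narrower scale) for the 37 genes tested in both lines, with SE bars; red marks a change that differs between the lines at an adjusted p under 0.05, and open points lie below 5 CPM in every group of a line. Most points are left of 0 in H1650 and above 0 in PC9, with BST2 at -0.30 and 3.79.

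Upstream and downstream genes of the pathway were read from lists of genes outside the 48. Their counts below stand beside these shares of all tested genes, and no list was tested as a set. In Tr-BrM against BrM 32.2% rose and 31.7% fell in H1650, and 29.6% rose and 30.3% fell in PC9. Under S100A9-inh against Tr-BrM 15.4% rose and 13.8% fell in H1650, and 26.3% rose and 26.1% fell in PC9. Of 13 interferon genes, 5 were tested in H1650 and 1 in PC9, none reaching 5 CPM. In H1650 3 of the 5 fell in Tr-BrM against BrM, and 4 were lower under S100A9-inh than in BrM. Under S100A9-inh against Tr-BrM 0 rose and 0 fell there, with a median of 0.46. The 1 gene tested in PC9 was higher under S100A9-inh than in BrM (1.31) and did not pass in the other comparisons. IFNL1, a type III interferon, had 0.808, 1.22 and 0.920 CPM under S100A9-inh, 0.468, 0.695 and 0.923 CPM in Tr-BrM controls and 4.34, 3.96 and 4.08 CPM in BrM controls and fell in Tr-BrM against BrM (-2.55 ± 0.232, adjusted p = 1.02e-10). IFNB1 was at 0.513 ± 0.238, 0.472 ± 0.109 and 0.508 ± 0.196 CPM in the same groups of H1650 and had 0 counts in every PC9 library. Of 9 receptor and kinase genes, 8 were tested in H1650, where 3 rose and 3 fell in Tr-BrM against BrM and 2 rose and 1 fell under S100A9-inh against Tr-BrM. In PC9 3 rose and 1 fell in Tr-BrM against BrM, and 1 rose and 2 fell under S100A9-inh, of 7 tested. IFNGR1, a chain of the interferon gamma receptor, had 36.8, 37.2 and 41.5 CPM under S100A9-inh, 76.4, 76.7 and 83.2 CPM in Tr-BrM controls and 34.4, 32.2 and 33.9 CPM in BrM controls in PC9. IFNLR1, the lambda receptor chain, changed by 0.83 ± 0.129 under S100A9-inh against BrM in PC9 and by 0.59 ± 0.101 in Tr-BrM against BrM in H1650. IFNGR2 changed by 0.30 ± 0.0755 (adjusted p = 0.00293) in H1650 under S100A9-inh against Tr-BrM.

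Among interferon regulatory factors outside the 48, IRF8, a factor of myeloid cells, had 13.5, 15.7 and 15.6 CPM under S100A9-inh, 12.4, 13.7 and 14.04 CPM in Tr-BrM controls and 0.587, 0.864 and 1.24 CPM in BrM controls in H1650, a change of 3.94 ± 0.161 (adjusted p = 1.27e-18) in Tr-BrM against BrM. IRF2, a repressor of interferon genes, was higher under S100A9-inh than in BrM in PC9 (0.53 ± 0.0859, adjusted p = 6.63e-06). IRF5 in PC9 had 9.19, 6.41 and 7.41 CPM under S100A9-inh, 3.70, 3.36 and 3.12 CPM in Tr-BrM controls and 6.96, 6.17 and 6.83 CPM in BrM controls and rose by 1.18 ± 0.151 (adjusted p = 9.84e-08) under S100A9-inh against Tr-BrM.

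Of 15 nucleic acid sensing genes, 5 of 13 tested rose and 5 fell in H1650 Tr-BrM against BrM, and 3 rose and 6 fell under S100A9-inh. In PC9 2 of 11 rose and 6 fell in Tr-BrM against BrM, and 3 rose and 1 fell under S100A9-inh. IFI16, a nuclear DNA sensor, changed most under S100A9-inh in H1650 (-0.59 ± 0.0698, adjusted p = 1.26e-07). STING1, the adaptor of cytosolic DNA sensing, had 29.4, 30.96 and 29.02 CPM under S100A9-inh, 34.2, 31.9 and 33.8 CPM in Tr-BrM controls and 64.6, 65.2 and 66.4 CPM in BrM controls in H1650. In PC9 STING1 had 19.7, 14.7 and 16.8 CPM under S100A9-inh, 10.99, 10.1 and 9.46 CPM in Tr-BrM controls and 3.78, 4.23 and 4.32 CPM in BrM controls. Its order across groups was thus opposite in the lines, with changes under S100A9-inh against BrM of -1.13 ± 0.0483 (adjusted p = 3.7e-18) in H1650 and 2.05 ± 0.123 (adjusted p = 1.06e-14) in PC9. DHX58 (LGP2), a regulator of RIGI and IFIH1, fell in H1650 in both steps (-0.92 ± 0.0792 and -0.49 ± 0.0877). TLR3, the endosomal sensor of double-stranded RNA, rose by 1.14 ± 0.0943 (adjusted p = 1.28e-11) in H1650 Tr-BrM against BrM.

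Among 12 interferon gamma and GBP genes, 7 of 11 tested fell and 2 rose in H1650 Tr-BrM against BrM, and 4 of 6 rose and 2 fell in PC9. Under S100A9-inh against Tr-BrM 2 rose and 3 fell in H1650, with a median of -0.21. In PC9 2 rose and 3 fell there too, with a median of -0.18. GBP4, a guanylate-binding GTPase, had 7.12, 6.41 and 7.25 CPM under S100A9-inh, 9.62, 9.51 and 7.97 CPM in Tr-BrM controls and 31.6, 28.6 and 29.3 CPM in BrM controls in H1650. GBP1, another of that family, had 123, 123 and 123 CPM under S100A9-inh, 74.1, 69.6 and 68.1 CPM in Tr-BrM controls and 109.6, 105 and 109 CPM in BrM controls. GBP4 fell in both steps (-1.72 ± 0.0824 and -0.38 ± 0.0976), while GBP1 fell in Tr-BrM against BrM (-0.61 ± 0.039) and rose under S100A9-inh (0.80 ± 0.0379, adjusted p = 1.32e-15). NLRC5, the transactivator of MHC class I genes, fell in H1650 in both steps (-1.40 ± 0.0652 and -0.57 ± 0.076). In PC9 it had 53.5, 46.6 and 47.2 CPM under S100A9-inh, 22.2, 23.1 and 23.8 CPM in Tr-BrM controls and 29.4, 27.5 and 29.2 CPM in BrM controls, with a rise of 1.09 ± 0.0681 (adjusted p = 2.21e-14) under S100A9-inh against Tr-BrM. WARS1, the tryptophanyl-tRNA synthetase, had the largest change of the list in PC9 Tr-BrM against BrM (0.90 ± 0.0502, adjusted p = 6.82e-16).

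Of 6 negative regulators of the pathway, 3 rose and 2 fell in H1650 Tr-BrM against BrM and 1 rose and 1 fell under S100A9-inh against Tr-BrM. In PC9 0 rose and 2 fell, and 2 rose and 2 fell, in the same comparisons. PIAS1, an inhibitor of STAT signalling, changed by 0.71 ± 0.0507 (adjusted p = 5.35e-13) in H1650 Tr-BrM against BrM. PTPN6, the phosphatase SHP-1, changed by -0.60 ± 0.0615 in PC9 Tr-BrM against BrM, by 0.56 ± 0.0617 under S100A9-inh against Tr-BrM in PC9, and by -0.35 ± 0.0748 under S100A9-inh in H1650. PTPN2, a phosphatase of JAK1, was higher under S100A9-inh than in BrM in PC9 (0.51 ± 0.0721, adjusted p = 6.11e-07). SOCS3, a feedback inhibitor of JAK kinases, fell in H1650 Tr-BrM against BrM (-0.45 ± 0.0852) and in PC9 under S100A9-inh against Tr-BrM (-0.41 ± 0.0722).

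Genes with and without the ISRE core are set side by side with no test. Of all genes tested in H1650, 31.7% fell in Tr-BrM against BrM and 13.8% under S100A9-inh against Tr-BrM. Under S100A9-inh against BrM 31.2% were lower there. In PC9 26.3% rose under S100A9-inh against Tr-BrM and 22.7% were higher under S100A9-inh against BrM. For Tr-BrM against BrM in PC9 29.6% rose and 30.3% fell, near the counts of genes with a match. In H1650 Tr-BrM against BrM 24 of 27 genes with a match fell, as did 10 of 12 without, with median changes of -0.72 and -0.57. Under S100A9-inh against Tr-BrM in H1650 24 of 27 and 10 of 12 fell, with medians of -0.33 and -0.42. In PC9 under S100A9-inh against Tr-BrM 14 of 23 with a match and 7 of 10 without rose, with medians of 0.44 and 0.50. In PC9 under S100A9-inh against BrM 15 of 23 with a match and 4 of 10 without were higher, with medians of 0.57 and 0.20. In PC9 Tr-BrM against BrM 8 of 23 with a match rose and 7 fell, and 4 of 10 without rose and 6 fell, with medians of 0.11 and -0.26. Under S100A9-inh against BrM in H1650 26 of 27 and 12 of 12 were lower, with medians of -1.09 and -0.96. Set per kilobase of exon, IFI6 was the highest of the 48 genes in H1650, at 1270 (S100A9-inh), 1900 (Tr-BrM) and 1350 (BrM) CPM per kilobase, and LGALS3BP the highest in PC9, at 220, 173 and 233 CPM per kilobase in the same groups. BST2 was second in both Tr-BrM groups of H1650, at 294 and 361 CPM per kilobase, and below IFI6 and ISG15 in the BrM controls, at 463 CPM per kilobase.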

How the data were processed

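Per the labels' protocols, poly-A RNA of H1650 and PC9 derivatives was sequenced with a TruSeq-compatible method. For each line the authors deposited a table of raw counts per gene, with reads aligned by STAR to GRCh38 and R 4.0.1 and DESeq2 1.28.1 also named, per the submitters' processing notes. The sources used here do not give the counting tool, annotation or use of strand. The tables held no column outside the 18 samples.

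Counts were fitted per line, all 9 libraries together, by the quasi-likelihood test of edgeR 4.0.16 (R 4.3.3). Scaling was by TMM, low counts were filtered per group with filterByExpr, and p-values were adjusted by Benjamini-Hochberg over all tested genes, with a threshold of 0.05. The fit within a line was checked on simulated counts of fixed spread, for Tr-BrM against BrM only. That check did not cover the interaction contrast or changes in genes of low level. SE is the size of the log2 fold change divided by the square root of F. Changes were compared between lines by an interaction contrast over all 18 libraries, on identifiers in both tables. Gene positions and overlaps came from GENCODE 29 (GRCh38), and promoters from RefSeq (GRCh38.p14). Count ratios have exact 95% intervals for counting error. Alternatives were other scalings, filters, DESeq2 1.42.0, only the 2 groups compared, a log2 fold change of at least 1, and leaving out each library.

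The 48 genes, the pathway and marker lists and the tests were chosen with earlier results of these data known. Values per library are given for up to 6 called genes with the largest rise and fall per comparison at 5 CPM or more, for called genes against the main direction, for the 6 smallest p per interaction, and always for STAT2, IRF9, IRF1, IRF7, RIGI and IFIH1. Of pathway genes, the largest change per list is named, and some results of the STAT and IRF list are not reported here. Other genes given values, such as SOCS3 and MX2, were chosen after their values were seen.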

Additional observations from a re-analysis of the deposited data

Results flagged for a closer look

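The change of these genes differed between the lines in the test of the difference itself, the edgeR interaction contrast over all 18 libraries. For S100A9-inh against Tr-BrM controls, the log2 difference, PC9 minus H1650, was 4.09 in BST2, 1.37 in PARP9, 1.21 in STAT2, 1.09 in OAS3, 1.0 in PARP14 and 0.83 in LGALS3BP. All 6 fell in H1650 and rose in PC9. For Tr-BrM against BrM controls it was -2.79 in BST2, -1.54 in STAT2, 1.75 in DDX60L, 1.66 in IFITM3, 1.56 in LGALS3BP and 0.87 in OAS3. BST2 and LGALS3BP fell in both lines there, STAT2 rose in H1650 and fell in PC9, and DDX60L, IFITM3 and OAS3 fell in H1650 and rose in PC9. The lines are 2 cell lines with 1 table each, so a difference between them cannot be told apart from a difference between the tables.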

How the results depend on the processing

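Of 208 alternative values of the counts of genes called, 194 were within 1.5 times the count reported. Requiring a log2 fold change of at least 1 in size left, in H1650, 2 higher and 13 lower in Tr-BrM against BrM, 1 lower under S100A9-inh against Tr-BrM, and 1 higher and 25 lower under S100A9-inh against BrM. In PC9 it left 4 higher and 6 lower, 9 higher and 1 lower, and 6 higher and 1 lower in the same comparisons, and 18 genes that differed between the lines under S100A9-inh against Tr-BrM. The share of all tested genes at this fold threshold is not given here, so these counts have no background beside them. Leaving out 1 library gave 0 to 1 higher and 36 to 39 lower in H1650 under S100A9-inh against Tr-BrM, the 1 being IFIT2 without Tr-BrM control replicate 1 (adjusted p = 0.0469, edgeR) or SAMD9 without S100A9-inh replicate 2 (adjusted p = 0.0417), while in H1650 the other 2 comparisons kept 6 higher and 39 lower, and 2 higher and 44 lower. In PC9 it gave 11 to 14 higher and 12 to 14 lower in Tr-BrM against BrM, 21 to 24 and 4 to 6 under S100A9-inh against Tr-BrM, and 21 to 25 and 3 under S100A9-inh against BrM, and the genes that differed between the lines, over all 48, numbered 30 to 35 and 33 to 38. These between-line counts, 33 and 36 with all libraries, include genes with too few PC9 counts to measure (IFI44, OAS2, RIGI and XAF1 in Tr-BrM against BrM, and CMPK2, IFI44L, OAS2 and TRIM22 under S100A9-inh against Tr-BrM). A count limited to genes measured in both lines, chosen after seeing the data, was 29 and 32. Of 2582 alternative values of single genes named by the rule or given with a change in the text, 2535 kept direction and side of the threshold, 33 lost the call, 2 gained it and 12 changed sign, none of these 12 past the test. Leaving out 1 library ended at least 1 call of 5 genes in H1650 under S100A9-inh against Tr-BrM (IFIH1, IFIT5, IFITM1, IFITM2 and MX2). In PC9 it did so for 7 in Tr-BrM against BrM (ADAR, EIF2AK2, IFIT5, IRF1, OAS1, OASL and PARP9), 3 under S100A9-inh against Tr-BrM (EPSTI1, HERC5 and SAMD9L) and 4 under S100A9-inh against BrM (EIF2AK2, HERC5, IFIT1 and IFIT2). The sign changes were IRF7 in H1650 under S100A9-inh against Tr-BrM (-0.38 to 0.15 on leaving out 1 library, 0.15 without Tr-BrM control replicate 2), IRF7 in PC9 in that comparison (-0.06 to 0.10 on leaving out 1 library, -0.06 without Tr-BrM control replicate 1, and -0.01 without S100A9-inh replicate 1 or 3), IRF9 in PC9 under S100A9-inh against BrM (-0.01 to 0.19, -0.01 without BrM control replicate 2), HERC5 in H1650 under S100A9-inh against Tr-BrM (-0.02 with library size scaling, and -0.02 to 0.03 on leaving out 1 library), DDX60 in PC9 in that comparison (-0.22 to 0.03), and ADAR in H1650 in Tr-BrM against BrM (0.03 with library size scaling). The cause was not tested. No paired analysis was possible because the labels' replicate numbers are not shared between the groups. Low counts limit what can be said of 11 PC9 genes below 1 CPM in all libraries: 10 did not pass the filter on low counts, and IFI44 passed it with few counts.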
